A study of Sus scrofa with 6 samples.

Results

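Astrocytes are the glial cells that take up potassium, water and transmitters around synapses, couple to one another through gap junctions and wrap blood vessels with their endfeet. Their filament protein GFAP and the more general filament protein vimentin are widely used to follow how they respond to injury, and a set of channels, transporters and enzymes marks them in healthy cortex. The genes described here are 31 such astrocyte marker and function genes, chosen by name, of which 30 were found among the 17201 genes listed in the files. S100B is not analysed here. Genes of glutamate uptake were kept apart and are given only for comparison.

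RNA came from the prefrontal cortex of 6 pigs (Sus scrofa) aged 3 months. The VPA group holds 3 animals, numbered 391, 392 and 393, that were exposed to valproic acid at 75 mg/kg during early gestation. The control group holds 3 animals, numbered 401, 402 and 408, labelled as given no treatment. Valproic acid is an anticonvulsant that inhibits histone deacetylases, and prenatal exposure to it is used to model autism. No strain, sex or litter is given in the labels, and all 6 libraries are of whole tissue.

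Total counts ran from 16285517 to 17989032 per library, so that 1 CPM (the count scaled to the library's total) stood for 16.3 to 17.99 reads. EIF1AY, a Y-linked gene, had 450 to 548 counts in 4 libraries and 0 and 2 in VPA 392 and control 401, so that each group held 1 library almost without it. VPA 393 stood apart in markers of striatal projection neurons, with a summed 770 CPM against 257 to 329 in the other 5 libraries. All 30 astrocyte genes had counts in every library and passed the filter on low counts, and none was at 0. The question put to them was whether their expression in cortex differed between the exposed and the control animals.

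Most astrocyte genes stood somewhat higher in VPA cortex, with small differences. The log2 fold change was positive for 25 of the 30 genes and negative for 5, where 50.5% of all 14373 genes tested had a positive value. Its median was 0.19 over the astrocyte genes, a fold of 1.14, and 0.0018 over all genes tested. The peptide transporter gene SLC15A2 and the filament gene VIM passed the threshold of 0.05 after Benjamini-Hochberg adjustment over all genes (quasi-likelihood test of edgeR). These 2 of 30 (6.67%) compare with 0.362% of all genes tested. No astrocyte gene passed as lower; PPP1R3C was the only lower one with an unadjusted p under 0.05, where 7.47% of all genes were lower at that level. Higher at that level were 14 of the 30 (46.7%) and 8.69% of all genes.

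The VPA and control libraries did not overlap in 14 of the 30 genes (46.7%), all of them higher in VPA, compared with 12.1% of all genes tested that were higher and 9.07% that were lower (21.2% in all). DESeq2, which gave no adjusted p for RANBP3L, called 8 of the other 29 higher and none lower, where it called 2.09% of the genes it tested higher and 1.55% lower (3.64% in all). The 8 were SLC15A2, VIM, ACSBG1, KCNJ10, HEPACAM, ATP1B2, MLC1 and CLU. In whole tissue, more astrocytes and more RNA of these genes per astrocyte cannot be told apart. Oligodendrocyte markers stood higher in the same libraries (20 of 22 positive, median 0.32), and 54.5% of them were higher without overlap. Their part in the astrocyte differences was not tested. Without VPA 393, the library with high striatal markers, 24 of the 30 astrocyte genes were positive and none was called in edgeR, which then called 1 of all genes.

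**Figure D1:**
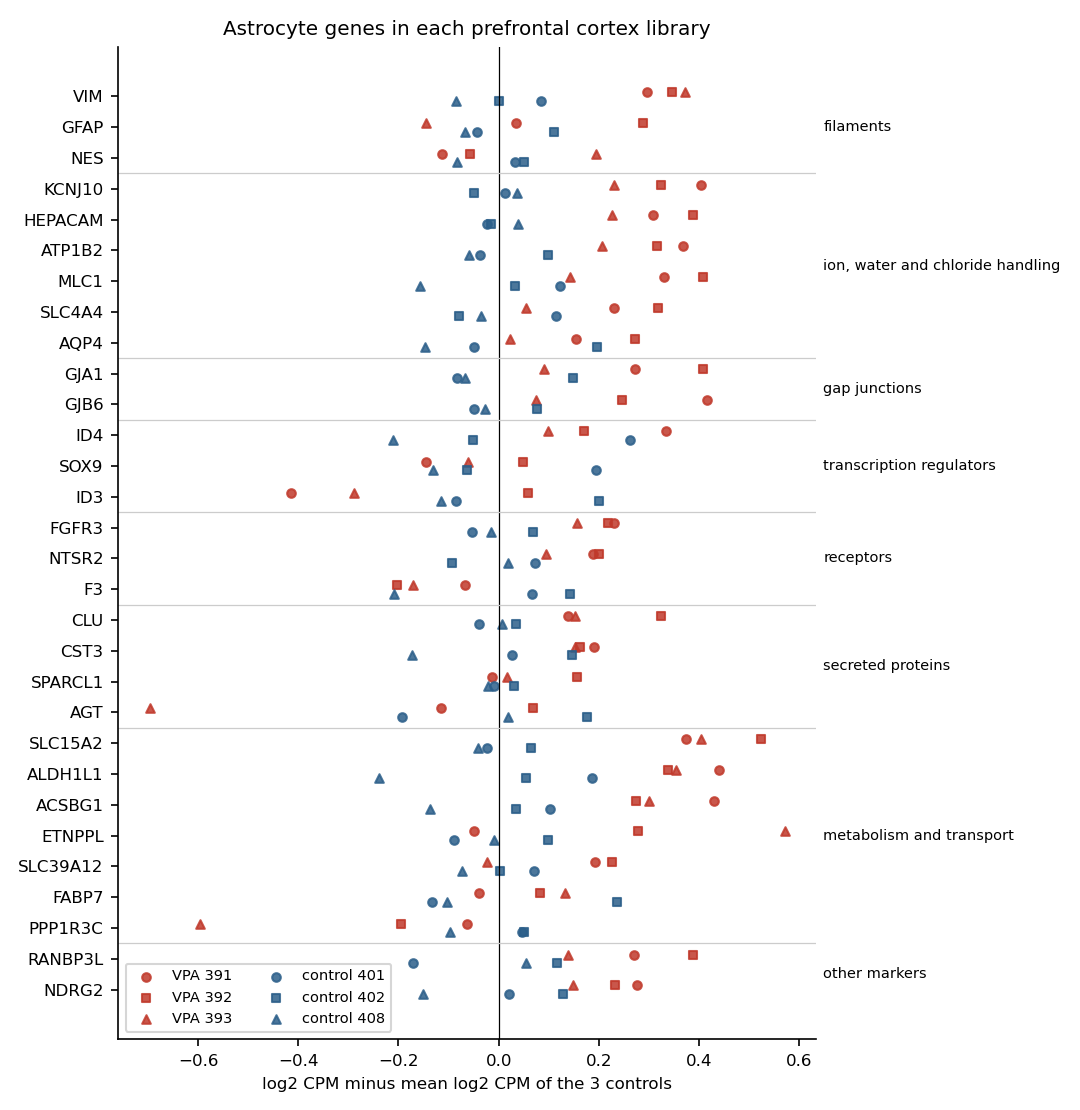
Each row is 1 astrocyte gene, grouped by role, and each point 1 library, as log2 CPM minus the mean log2 CPM of the 3 controls (red, VPA; blue, control). The red points of VIM, SLC15A2, KCNJ10 and HEPACAM lie to the right of all blue points, while those of GFAP, SOX9 and NES are mixed with them, and VPA 393 lies far to the left in AGT and PPP1R3C.

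Levels of the astrocyte genes spanned more than 3 orders of magnitude per unit of gene length. On the FPKM scale, which divides counts by library total and gene length, CLU was highest in controls at 1457 ± 37.8 (SD, n = 3). CST3 followed at 969 ± 107 FPKM, GFAP at 793 ± 53.5 and SPARCL1 at 523 ± 9.62. CLU lay apart from the genes under it, while the ranges of mean ± SD of CST3 and GFAP nearly met. FABP7 had 315 ± 46.4 FPKM and NDRG2 255 ± 24.6, neighbours whose ranges of mean ± SD met. A dense middle group held AQP4 at 123 ± 15.4, VIM at 117 ± 6.84, GJA1 at 112 ± 10.3 and MLC1 at 106 ± 10.3 FPKM, which did not differ beyond their spread. The lowest were NTSR2 at 5.15 ± 0.300, NES at 3.77 ± 0.187 and RANBP3L at 0.811 ± 0.0826 FPKM.

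**Figure D2:**
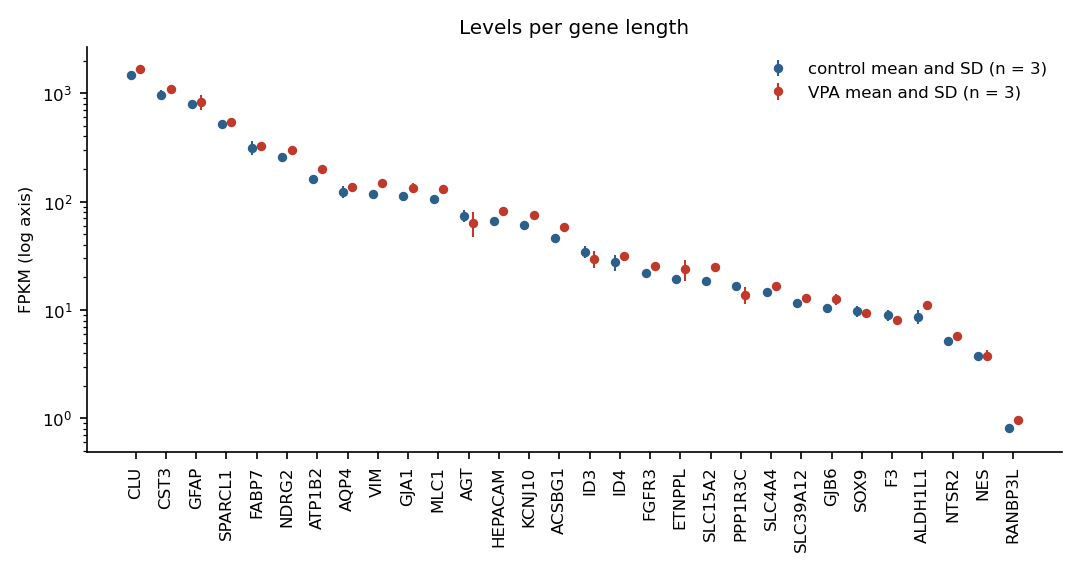
Mean FPKM with SD (n = 3 per group) of the 30 astrocyte genes on a log axis, ordered by the control mean. CLU, CST3 and GFAP are highest and RANBP3L lowest in both groups.

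Filament genes gave 1 rise among 3. VIM encodes vimentin, which astrocytes share with endothelial, mural and immature cells. It had 419, 434 and 441 CPM in VPA 391, 392 and 393, and 362, 341 and 322 CPM in controls 401, 402 and 408. Every VPA library lay above every control library. VIM rose 1.25-fold (log2 fold change 0.32 ± 0.052 SE, 95% interval 0.21 to 0.44, not adjusted for the number of genes; adjusted p = 0.047 in edgeR). It also passed without control 401 and fell short without each of the other 5 libraries in turn (adjusted p from 0.066 to 0.15), with log2 fold changes of 0.28 to 0.36 over the 6 omissions.

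GFAP, the filament gene most used to mark astrocytes, had 2432, 2897 and 2147 CPM in the VPA libraries and 2304, 2561 and 2267 CPM in the controls. VPA 392 was the highest and VPA 393 the lowest of all 6, so that the control values lay inside the VPA range. Its log2 fold change was 0.056 with a 95% interval of -0.16 to 0.27 (adjusted p = 0.83 in edgeR), and -0.067 without VPA 392. NES encodes nestin, a filament of progenitor and endothelial cells, and had 19.4, 20.2 and 24.1 CPM in VPA against 21.5, 21.8 and 19.8 CPM in controls. Its interval ran from -0.22 to 0.22 around 0.0012.

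The difference between VIM and GFAP was examined within each library, as a ratio chosen after their values were seen. VIM stood at 0.177, 0.154 and 0.211 of the GFAP level in FPKM in VPA 391, 392 and 393, and at 0.161, 0.137 and 0.146 in the controls. The groups overlapped, since VPA 392 lay under control 401. An exact two-sided permutation test gave p = 0.2 (0.45 after Benjamini-Hochberg adjustment over 3 ratios), where 3 against 3 libraries cannot go below 0.1. With this number of libraries the ratio could not have passed 0.05, so whether VIM and GFAP differed in their response was not settled by it.

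VIM is also made by cells of vessel walls, and their markers were read in the same libraries. Of 19 endothelial markers 11 were positive (median 0.027), none was called in edgeR or DESeq2 or had an unadjusted p under 0.05, and none was at 0. Their summed level ran from 738 to 858 CPM in VPA and from 745 to 801 CPM in controls. Of 16 mural cell and fibroblast markers 11 were positive, with a median of 0.19 and summed levels of 562 to 710 CPM in VPA and 499 to 610 CPM in controls. None of the 16 was called in edgeR. At an unadjusted p under 0.05, 2 were higher (12.5%), near the 8.69% of all genes. Only 1 was higher without overlap (6.25%), where 12.1% of all genes were. DESeq2 called 1 higher, MYH11, where it called 2.09% of the genes it tested higher. MYH11, a smooth muscle myosin gene, had the lowest p of these, at 46.6, 52.6 and 44.8 CPM against 38.7, 38.7 and 38.0 CPM (adjusted p = 0.10 in edgeR, 0.048 in DESeq2). Their part in the VIM difference was not tested.

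**Figure D3:**
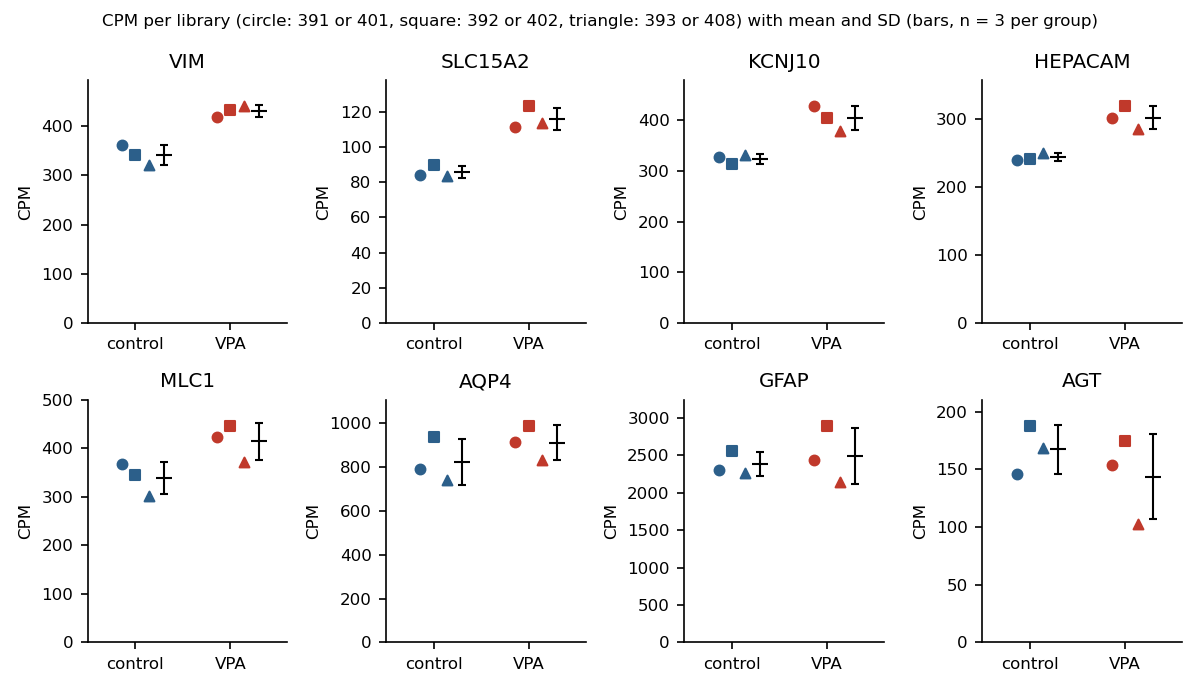
CPM of 8 astrocyte genes in each library (points; red, VPA; blue, control) with the group mean and SD (black, n = 3), on axes that start at 0. VIM, SLC15A2, KCNJ10, HEPACAM and MLC1 show separate groups, although MLC1 only by 372 against 367 CPM, whereas AQP4, GFAP and AGT overlap.

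Genes of ion, water and chloride handling were all higher on average in VPA cortex, but none of the 6 passed the edgeR threshold. KCNJ10 encodes the inwardly rectifying potassium channel with which astrocytes clear extracellular potassium. It had 428, 405 and 379.8 CPM in VPA 391, 392 and 393, and 327, 313 and 332 CPM in the controls. The groups were separated by 47.8 CPM, and the log2 fold change was 0.31 ± 0.057 (adjusted p = 0.054 in edgeR, 0.00024 in DESeq2).

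HEPACAM encodes an adhesion protein of astrocyte junctions that binds and localises MLC1. It had 302, 319.5 and 286 CPM in VPA and 240.1, 242 and 251 CPM in controls, with a log2 fold change of 0.30 ± 0.054 (adjusted p = 0.052 in edgeR, 0.00043 in DESeq2). Its partner MLC1, a membrane protein mutated in a leukodystrophy with cysts, had 424, 447 and 372 CPM in VPA and 367, 345 and 303 CPM in controls. That difference was of similar size (0.28 ± 0.083) with a larger error (adjusted p = 0.14 in edgeR, 0.019 in DESeq2). The MLC1 to HEPACAM ratio in FPKM was 1.57 ± 0.0650 in VPA and 1.59 ± 0.189 in controls (SD, n = 3). An exact permutation test gave p = 0.8, where the smallest possible is 0.1. It could not have passed 0.05, so whether the 2 genes differed in their response was not settled by it.

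ATP1B2, a sodium pump subunit and glial adhesion molecule, had 649.5, 626 and 580.4 CPM in VPA against 490.1, 539 and 483 CPM in controls. The groups did not overlap, and the log2 fold change was 0.28 ± 0.063 (adjusted p = 0.073 in edgeR, 0.0014 in DESeq2). The bicarbonate cotransporter gene SLC4A4 had 143 to 171 CPM in VPA and 130.1 to 149 CPM in controls, and the groups overlapped (log2 fold change 0.19, edgeR adjusted p = 0.24). AQP4, the water channel gene of the endfeet, had 912, 989 and 833 CPM in VPA against 792, 939 and 739.6 CPM in controls. Control 402 exceeded 2 of the VPA libraries, and the 95% interval of the AQP4 log2 fold change was -0.066 to 0.33. The ratio of KCNJ10 to AQP4, 2 channels of the same endfeet, was 0.558 ± 0.0392 in VPA and 0.499 ± 0.0742 in controls in FPKM (SD, n = 3; exact permutation p = 0.3, where the smallest possible is 0.1).

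The dystrophin complex holds AQP4 and KCNJ10 at the endfeet. Of 11 of its genes measured, 7 were positive and 4 negative, with a median log2 fold change of 0.062. None was called in edgeR or in DESeq2. At an unadjusted p under 0.05, 2 were higher, where 8.69% of all genes were.

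Gap junction genes leaned the same way, with overlapping groups. GJA1 encodes connexin 43, the main astrocyte connexin, and had 416, 457 and 367 CPM in VPA against 325, 382 and 329 CPM in controls. VPA 393 lay under control 402, and the log2 fold change was 0.25 ± 0.087 (adjusted p = 0.20 in edgeR). GJB6, which encodes a second astrocyte connexin, had 32.3, 28.7 and 25.5 CPM in VPA and 23.4, 25.6 and 23.8 CPM in controls (0.24 ± 0.10, adjusted p = 0.28). Among 8 other connexin genes tested, 6 were positive with a median of 0.32 and none was called in edgeR. DESeq2 called 2 higher, where it called 2.09% of the genes it tested higher. At an unadjusted p under 0.05, 3 were higher, where 8.69% of all genes were.

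Among metabolic and transport genes SLC15A2 showed the largest difference of the 30. It encodes a proton-coupled peptide transporter that clears small peptides from brain fluid. It had 111, 123 and 113 CPM in VPA 391, 392 and 393, and 84.3, 89.6 and 83.3 CPM in the controls. The lowest VPA library was 21.5 CPM above the highest control. SLC15A2 rose 1.34-fold (log2 fold change 0.42 ± 0.059, 95% interval 0.29 to 0.55, adjusted p = 0.040 in edgeR). It also passed without control 401 and fell short without each of the other 5 libraries in turn (adjusted p from 0.056 to 0.13), with log2 fold changes of 0.38 to 0.45 over the 6 omissions.

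Of the enzymes, ACSBG1, an acyl-CoA synthetase gene of fatty acid activation, had 276, 248 and 253 CPM in VPA against 220.2, 210.0 and 186 CPM in controls. The groups were apart, and the log2 fold change was 0.32 ± 0.067 (adjusted p = 0.067 in edgeR, 0.0013 in DESeq2). ALDH1L1, a folate enzyme gene used to mark astrocytes throughout the brain, had 35.3, 32.9 and 33.3 CPM in VPA and 29.6, 27.0 and 22.1 CPM in controls. Its difference was of similar size (0.35 ± 0.10) with more spread among the controls (CV 14.6%, against 3.85% in VPA; adjusted p = 0.14 in edgeR). ETNPPL, a phospholyase gene that breaks down phosphoethanolamine, had 40.7, 51.1 and 62.6 CPM in VPA and 39.6 to 45.1 CPM in controls. VPA 391 lay inside the control range, and without VPA 393 the log2 fold change went from 0.27 to 0.11.

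PPP1R3C encodes a subunit that directs a protein phosphatase to glycogen, the fuel store that the brain keeps mainly in astrocytes. It had the most negative fold change of the 30, with 53.2, 48.6 and 36.8 CPM in VPA and 57.5, 57.6 and 52.0 CPM in controls. VPA 391 lay above control 408. Its log2 fold change was -0.28 ± 0.12 (adjusted p = 0.28 in edgeR) and -0.14 without VPA 393. FABP7, a brain fatty acid binding protein gene, had 242 to 273 CPM in VPA and 227 to 293 CPM in controls, and the zinc transporter gene SLC39A12 had 34.2 to 40.6 and 33.0 to 36.5 CPM. Both overlapped, with log2 fold changes of 0.037 (95% interval -0.16 to 0.24) and 0.12 (-0.072 to 0.32).

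**Figure D4:**
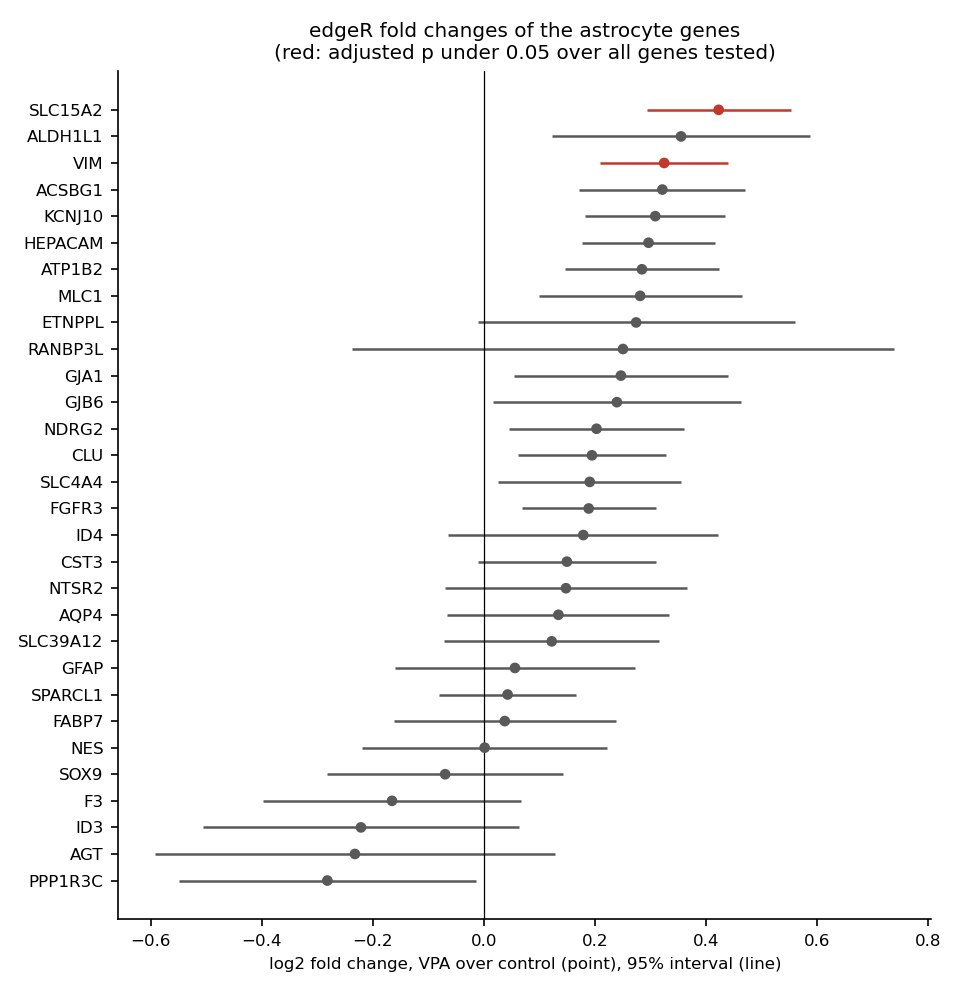
Log2 fold change of VPA over control (point) with its 95% interval (line, not adjusted for the number of genes) for the 30 astrocyte genes, from the edgeR fit; red marks adjusted p under 0.05 over all genes tested. SLC15A2 at 0.42 and VIM at 0.32 are red, and most other points lie between 0 and 0.36. SOX9, F3, ID3, AGT and PPP1R3C lie under 0, and of these only PPP1R3C has an interval that leaves out 0 (-0.55 to -0.014).

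The 3 transcription regulators were mixed in direction. SOX9, a driver of glial fate, had 32.0, 36.7 and 34.0 CPM in VPA and 40.5, 33.9 and 32.4 CPM in controls (log2 fold change -0.070, 95% interval -0.28 to 0.14). ID3 and ID4 encode inhibitors of basic helix-loop-helix factors that respond to bone morphogenetic proteins. ID3 had 24.5, 34.0 and 26.7 CPM in VPA and 30.7, 37.5 and 30.1 CPM in controls (-0.22 ± 0.13, adjusted p = 0.43 in edgeR). ID4 had 83.5, 74.5 and 70.8 CPM in VPA and 79.3, 63.9 and 57.2 CPM in controls (0.18 ± 0.11, adjusted p = 0.46). All 3 had overlapping groups, and no call was made in edgeR or DESeq2.

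Signals that drive astrocyte fate were read as a list of 41 tested genes, among them genes of the bone morphogenetic protein, Notch, cytokine receptor, fibroblast growth factor and nuclear factor I families, and EGFR, SOX2 and ZBTB20. Of these 25 were positive, with a median log2 fold change of 0.057, and none was called in edgeR. At an unadjusted p under 0.05, 7 were higher and 1 lower, where 8.69% and 7.47% of all genes were. The groups did not overlap in 11 higher and 1 lower (12.1% and 9.07% of all genes). DESeq2 called 2 higher, NFIA and ZBTB20, where it called 2.09% of the genes it tested higher. NFIA, a transcription factor gene of gliogenesis, had the lowest p, with 37.8, 38.3 and 41.1 CPM in VPA and 31.1, 31.4 and 29.6 CPM in controls (0.34 ± 0.072, adjusted p = 0.067 in edgeR).

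Among receptors, the fibroblast growth factor receptor gene FGFR3 had 121, 120.0 and 115 CPM in VPA and 99.4, 108 and 102 CPM in controls. The groups did not overlap, and its log2 fold change was 0.19 ± 0.054 (adjusted p = 0.13 in edgeR). The neurotensin receptor gene NTSR2 had 15.4 to 16.6 CPM in VPA and 13.5 to 15.2 CPM in controls (0.15, adjusted p = 0.50). F3 encodes tissue factor, the starter of coagulation, and had 20.6 to 22.7 CPM in VPA and 20.5 to 26.2 CPM in controls (-0.17, adjusted p = 0.47).

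The secreted proteins differed among themselves. CLU, the clusterin gene and the most abundant of the 30, had 4079, 4634 and 4114 CPM in VPA and 3602, 3793 and 3719 CPM in controls. The groups did not overlap (log2 fold change 0.19 ± 0.060, adjusted p = 0.15 in edgeR, 0.032 in DESeq2). CST3, which encodes the protease inhibitor cystatin C, had 518, 508 and 505 CPM in VPA and 463, 503 and 403 CPM in controls. The CV was 1.36% among the VPA libraries and 11.1% among the controls, and control 402 came within 1.55 CPM of the lowest VPA library.

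SPARCL1, whose product promotes synapse formation, had 1840.5, 2069 and 1879 CPM in VPA and 1846, 1896 and 1830.2 CPM in controls, with a 95% interval of the log2 fold change from -0.080 to 0.17. AGT encodes angiotensinogen, made in brain mainly by astrocytes, and had 154, 175 and 103 CPM in VPA and 146, 188 and 169 CPM in controls. VPA 393 alone lay under the control range. The log2 fold change of AGT was -0.23 ± 0.16 (adjusted p = 0.52 in edgeR) and -0.035 without VPA 393.

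The remaining 2 markers were NDRG2 and RANBP3L. NDRG2 had 747, 725 and 684 CPM in VPA and 626, 675 and 556 CPM in controls, apart by 8.80 CPM (0.20 ± 0.071, adjusted p = 0.20 in edgeR). RANBP3L, the rarest of the 30, had 2.89 to 3.44 CPM in VPA and 2.33 to 2.85 CPM in controls (0.25 ± 0.22, adjusted p = 0.63), so that its groups were apart but its interval, -0.24 to 0.74, was the widest.

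The libraries of a group did not contribute equally. Among the VPA libraries 392 was the highest in 15 of the 30 genes and 393 the lowest in 18. Among the controls 402 was the highest in 19 and 408 the lowest in 18. Measured as the median log2 deviation from the control mean, VPA 391, 392 and 393 stood at 0.21, 0.26 and 0.14, and controls 401, 402 and 408 at 0.0025, 0.059 and -0.070. The summed level of the 30 genes was 14636, 16021 and 13975 CPM in VPA and 13071, 13938 and 12790 CPM in controls (12.1% higher on average), so that VPA 393 and control 402 nearly met. The median log2 fold change of the 30 genes was 0.22 without VPA 393 and 0.15 without VPA 391.

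Further astrocyte genes were read as a separate list. Of 39 tested, 31 were positive, with a median of 0.20, and 2 passed in edgeR (5.13%, against 0.362% of all genes). At an unadjusted p under 0.05, 15 were higher and 1 lower, where 8.69% and 7.47% of all genes were. The groups did not overlap in 14, all higher in VPA (35.9%, against 12.1% of all genes). DESeq2 called 5 higher and 0 lower, where it called 2.09% and 1.55% of the genes it tested. PHGDH, which starts serine synthesis, rose from 84.6 ± 3.94 to 107 ± 4.62 CPM (SD, n = 3 each; log2 fold change 0.32 ± 0.057, adjusted p = 0.048). PLPP3, a lipid phosphate phosphatase gene, rose from 256 ± 15.5 to 319 ± 7.45 CPM (0.30 ± 0.053, adjusted p = 0.048). Every VPA library was above every control in both. Neither passed when any 1 of the 6 libraries was left out (edgeR adjusted p from 0.066 to 0.14 for PHGDH and from 0.053 to 0.17 for PLPP3). The glutamate transporter gene SLC1A3 had 1598, 1619 and 1350 CPM in VPA and 1051, 1233 and 1174 CPM in controls. Its log2 fold change was 0.39 ± 0.083 (adjusted p = 0.067 in edgeR, 0.00013 in DESeq2). SLC1A2 had 3440 to 3575 CPM in VPA and 2994 to 3114 CPM in controls (0.18 ± 0.048, adjusted p = 0.11 in edgeR, 0.0076 in DESeq2). The groups did not overlap in either gene. GLUL, the glutamine synthetase gene, overlapped at 2316 to 2577 and 1986 to 2510 CPM.

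Genes known to rise in reactive astrocytes showed no common direction. Of 28 tested, 15 were positive and 13 negative, with a median of 0.024, and their summed level ran from 664 to 724 CPM in VPA and from 594 to 696 CPM in controls. The oncostatin M receptor gene OSMR fell, with 7.23, 7.25 and 7.73 CPM in VPA and 12.7, 11.4 and 11.4 CPM in controls (log2 fold change -0.69 ± 0.12, adjusted p = 0.048 in edgeR). It was the one called gene of the list (3.57%, against 0.362% of all genes). OSMR did not pass when any 1 of the 6 libraries was left out (edgeR adjusted p from 0.063 to 0.17). At an unadjusted p under 0.05, 2 of the 28 were higher and 3 lower, where 8.69% and 7.47% of all genes were. The groups did not overlap in 1 higher and 3 lower (12.1% and 9.07% of all genes). The 8 relatives and partners of GFAP and VIM among the filament genes (type III and IV) had 4 positive and 4 negative values, a median of 0.012 and no call in edgeR or DESeq2. INA, a neuronal filament gene, had the lowest p of them, at 321 to 339 CPM in VPA and 349 to 373 CPM in controls (-0.14 ± 0.049, adjusted p = 0.19; the only one with an unadjusted p under 0.05).

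Markers of other cell types were read in the same libraries. Of 22 oligodendrocyte markers 20 were positive, with a median log2 fold change of 0.32, and none was called in edgeR. At an unadjusted p under 0.05, 15 were higher (68.2%, against 46.7% of the astrocyte genes and 8.69% of all genes). The groups did not overlap in 12, all higher in VPA (54.5%, against 46.7% of the astrocyte genes and 12.1% of all genes). DESeq2 called 9 of these oligodendrocyte markers higher, where it called 2.09% of the genes it tested higher. Their summed level was 17704 to 19927 CPM in VPA and 13582 to 18183 CPM in controls. The lowest p was that of CLDN11, whose product forms tight junctions in myelin, at 282 to 328 CPM in VPA and 183 to 250.4 CPM in controls. Of 14 oligodendrocyte precursor markers 11 were positive (median 0.22), with summed levels of 1347 to 1549 CPM in VPA and 1098 to 1308 CPM in controls. None of the 14 was called in edgeR, while DESeq2 called 3 higher (2.09% of the genes it tested). At an unadjusted p under 0.05, 7 were higher, and 7 did not overlap, all higher in VPA (8.69% and 12.1% of all genes). PTPRZ1, a receptor phosphatase gene shared by precursors and astrocytes, led this list at 393 to 444 CPM against 320 to 359 CPM. Of 18 microglia markers 13 were positive (median 0.086), with summed levels of 785 to 809.6 CPM in VPA and 633 to 798 CPM in controls. SALL1 led them with 39.0 to 40.6 CPM in VPA and 31.9 to 34.0 CPM in controls. None of the 18 was called in edgeR or DESeq2. At an unadjusted p under 0.05, 3 were higher, and 2 did not overlap, both higher in VPA (8.69% and 12.1% of all genes). EMCN, a sialomucin gene, led the endothelial list with 9.09 to 9.76 CPM in VPA and 10.1 to 12.7 CPM in controls.

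Neuronal lists were divided. Of 16 glutamatergic neuron markers 12 were negative, with a median of -0.15 and summed levels of 6330 to 6495 CPM in VPA and 6658 to 6891 CPM in controls, which did not overlap. None of the 16 was called in edgeR. At an unadjusted p under 0.05, 8 were lower, where 7.47% of all genes were. The groups did not overlap in 7, all lower in VPA, where 9.07% of all genes were lower without overlap. DESeq2 called 4 of these markers lower, where it called 1.55% of the genes it tested lower. NEUROD6, a transcription factor gene of these neurons, led them with 34.4 to 36.5 CPM in VPA and 42.3 to 45.5 CPM in controls. Of 18 GABAergic interneuron markers 13 were positive (median 0.12). Their summed level was 2074 to 2187 CPM in VPA and 2033 to 2065 CPM in controls. None was called in edgeR, while DESeq2 called 1 lower (1.55% of the genes it tested). At an unadjusted p under 0.05, 2 were higher and 2 lower (8.69% and 7.47% of all genes). The groups did not overlap in 5 higher and 2 lower (12.1% and 9.07% of all genes). The list's lowest p belonged to LAMP5, lower in VPA at 189 to 199 against 226 to 259 CPM. Of 14 striatal projection neuron markers listed, 11 passed the filter on low counts, and all 11 were positive (median 0.95). None was called in edgeR, while DESeq2 called 2 higher (2.09% of the genes it tested). At an unadjusted p under 0.05, 9 were higher, and 8 did not overlap, all higher in VPA (8.69% and 12.1% of all genes). The dopamine receptor gene DRD2 led them at 1.85, 1.66 and 11.1 CPM in VPA 391, 392 and 393 and 0.171 to 0.667 CPM in controls. A gene this low in controls could pass the filter through the VPA libraries alone, so the counts of this list follow in part from the filter. Of 12 ependymal and choroid plexus markers 7 were positive (median 0.11), with summed levels of 89.5 to 118 CPM in VPA and 91.7 to 104 CPM in controls. At an unadjusted p under 0.05, 3 of the 12 were higher and 2 lower (8.69% and 7.47% of all genes). The groups did not overlap in 3 higher and 1 lower (12.1% and 9.07% of all genes). The transthyretin gene TTR was the one called in edgeR (8.33%, against 0.362% of all genes). It had 4.42, 4.85 and 9.84 CPM in VPA and 0.611 to 1.42 CPM in controls. It did not pass when any 1 of the 6 libraries was left out (edgeR adjusted p from 0.051 to 0.13). No marker of these lists was at 0 in all 6 libraries. The part of these cell types in the astrocyte differences was not tested.

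**Figure D5:**
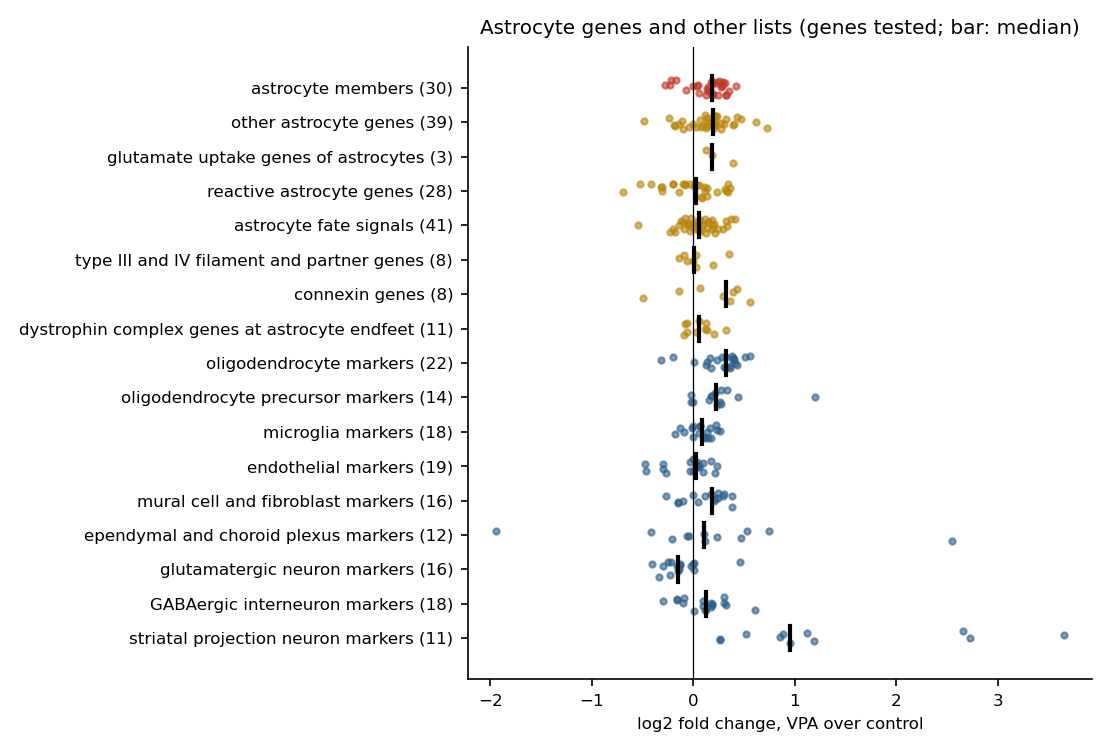
Log2 fold changes of VPA over control for the genes tested in each list (points, with the number tested in brackets and a vertical bar at the median). The astrocyte genes are red and other cell types blue. Related gene lists, among them the other connexin and filament genes, are gold. The astrocyte median of 0.19 lies above those of the reactive astrocyte (0.024) and endothelial (0.027) lists and under that of the oligodendrocyte markers (0.32).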

How the data were processed

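Per the labels' protocols, TRIzol was used to extract total RNA, followed by a VAHTS Universal V6 library kit. The sources used here do not give the aligner, counting tool, genome build or strandedness, so no coordinates are printed. For every library the authors deposited 1 table of raw counts and 1 of FPKM, per the file headers. All 97071 nonzero FPKM values equalled the deposited count scaled by the file's total and 1 length per gene within a relative tolerance of 0.001, so the 2 tables carry 1 measurement. Groups and animal numbers came from the labels. The p-values set the group difference against the spread between these animals. Litters are not given, so whether animals of a group share a litter is not known. Litter and exposure therefore cannot be told apart. Reads shared with similar or overlapping genes cannot be separated.

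CPM used the file totals. Counts of all genes were fitted in R 4.3.3 with edgeR 4.0.16 (filterByExpr, 14373 of 17201 genes; TMM factors 0.993 to 1.01; glmQLFit and glmQLFTest without covariates; Benjamini-Hochberg; threshold 0.05). The fit had 4 residual degrees of freedom and a common biological coefficient of variation of 9.01%. Standard errors came from the F statistic. The functions were checked on simulated data. Genes called in an alternative by DESeq2 1.42.0 or limma 3.58.1 are named as such. The genes and lists were chosen with earlier results of these data known. All listed astrocyte genes are named; of each other list, up to 3 called genes, otherwise the one with the lowest p, and the 3 glutamate uptake genes. Some genes selected this way are not reported here.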

Additional observations from a re-analysis of the deposited data

How the results depend on the processing

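No paired analysis was possible because the groups share no animal numbers. Over 17 alternatives the median log2 fold change of the astrocyte genes stayed between 0.15 and 0.22. No astrocyte gene was called lower in any of them, and 23 to 25 were positive when 1 library was left out. The number called, 2 in the main test, was 4 with upper quartile factors, 4 with library size only, 5 without the filter, 6 with robust dispersion, 8 with DESeq2, and 0 with limma-trend on log2(FPKM + 1) or log2(FPKM + 0.1). It ran from 0 to 2 with 1 library left out, and was 2 only without control 401. Over all genes 52 were called, 141 without the filter, 444 with DESeq2, 168 with robust dispersion, 30 with limma-voom, 2 with either FPKM fit, and 0 to 66 with 1 library left out; the causes were not tested. Signs changed in 5 genes, none called. NES had -0.0013 with RLE factors, -0.0041 without the filter and -0.0019 with DESeq2. With 1 library left out, NES ran from -0.093 (without VPA 393) to 0.049, GFAP from -0.067 (without VPA 392) to 0.16, SPARCL1 from -0.011 (without VPA 392) to 0.067, FABP7 from -0.039 (without control 401) to 0.16, and SOX9 from -0.13 to 0.023 (without control 401). NES was also negative without control 408 (-0.038), as was FABP7 (-0.015). With 3 animals a group, an adjusted p above the threshold does not show that a gene did not differ.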
